A study of Mus musculus with 6 samples.

Results

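Imprinted genes are genes expressed mainly from the copy inherited from 1 parent. The 41 known imprinted mouse genes described here were taken by symbol from a list chosen with earlier results of these data known. All 41 had a row among the 24411 genes of the count tables. They were measured by bulk RNA sequencing of mouse cerebellum. The mice were at postnatal day 18, with 3 wild-type (WT) libraries and 3 libraries from mice that lack the remote enhancer of Atoh7 (KO), a proneural transcription factor gene. Nothing in the labels used here gives the strain, the zygosity or the sex of the mice, and the replicates are described as independent. The tissue entry in the labels is retina, against the cerebellum of the design text. As a check of the tissue, 5 granule neuron markers summed to 1140.2 to 1482 CPM (reads per 1e+06 scaled reads) in WT and 904 to 1196 in KO, and 5 Purkinje cell markers to 2901 to 3511 and 3154 to 4039 CPM.

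Imprinted genes lie in clusters, each under a control region whose DNA methylation is set in the egg or the sperm and then kept by factors such as ZFP57. Many clusters hold a long non-coding RNA that stays in the nucleus and is made from the parental copy on which neighbouring protein-coding genes are silent. In brain, imprinted genes act in growth, metabolism, behaviour and synapse function, and loss of the maternal UBE3A or of paternal genes beside it underlies Angelman and Prader-Willi syndromes. The counts do not tell parental copies apart, so every value below is a sum over both.

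Reads assigned to genes numbered 16340132 to 34438262 per library. WT replicate 3 stood apart, with 63.2% of its gene reads on the ribosomal RNA precursor Rn45s against 1.28% to 3.04% in the others, and 6015125 reads on other genes. WT replicate 1 was the library with reads of the inactive X chromosome RNA Xist (31134, against at most 10 elsewhere). The share of reads on no exon of their strand was 34.3% ± 3.59 in WT and 17.3% ± 0.291 in KO (SD, n = 3 each), and the groups did not overlap. It holds reads in introns, between genes and opposite exons. Atoh7 had 72, 56 and 7 reads in WT and 45, 54 and 92 in KO, and as the deleted element is described as remote from the gene, its level does not check the labels. The name under which the data of KO replicate 3 were deposited differs by 1 letter from those of the other KO libraries, while its labels are the same as theirs. Without it, 5 of the imprinted genes in place of 7 were called, and the same 5 were called without WT replicate 2 or KO replicate 1.

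Of the 41 genes, 39 passed the filter on low counts and 2, Dio3 and Phlda2, did not. Among the 39, 6 fell in KO, 1 rose and 32 did not pass a Benjamini-Hochberg adjusted p of 0.05 (edgeR, quasi-likelihood). Of all 15519 genes tested, 16.7% were called, 10.2% as lower and 6.43% as higher, so the share of imprinted genes called, 17.9%, was near that of all genes. In 10 of the 39 all WT libraries were above all KO libraries and in 6 the reverse held, against 39.4% of all genes tested without overlap in either direction. The median log2 fold change of the 39 was 0.06 (all genes: −0.01). Without WT replicate 1, 13 of the imprinted genes were called, 6 of them protein-coding, and without WT replicate 3, 9 were, 3 of them protein-coding. The calls lay mostly among the non-coding genes of the list. Of the 8 long non-coding RNA genes 5 fell and 1 rose, 2 did not pass, and the median was −0.52. Of the 31 protein-coding genes tested, 1 fell and 0 rose, 30 did not pass, and the median was 0.14. The 1 call was lost without WT replicate 2 or any 1 of the KO replicates, and DESeq2 called 5 protein-coding genes. Across the genome, 109 of 663 annotated long non-coding genes tested fell and 15 rose (median −0.16), and 1417 of 14640 protein-coding genes fell and 978 rose (median 0.00).

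**Figure D1:**
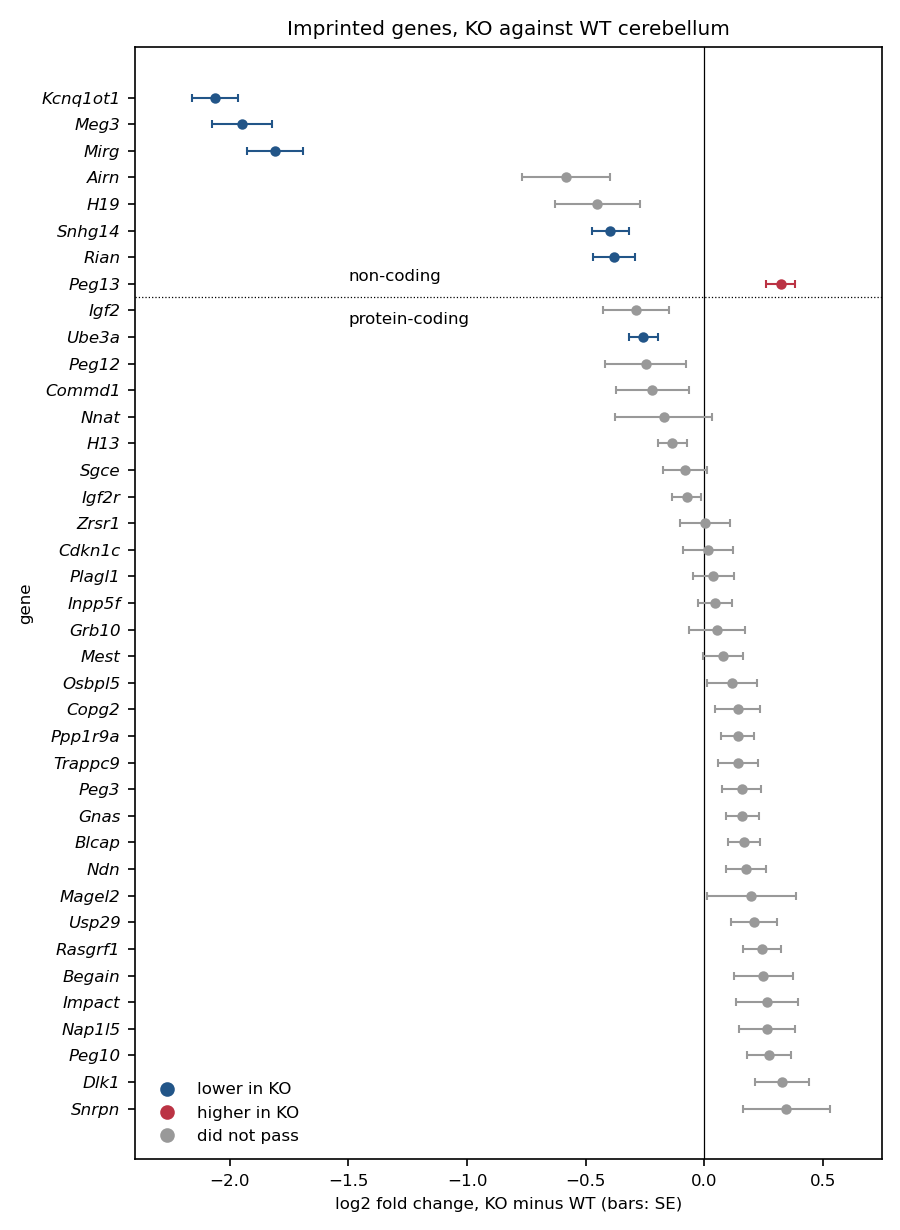
Log2 fold change of KO over WT (x axis) for each of the 39 imprinted genes tested (y axis), non-coding genes above the dotted line and protein-coding genes below, with bars for the standard error. Kcnq1ot1, Meg3 and Mirg stand at −2.06 to −1.81, and all other genes lie between −0.58 and 0.35.

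By parental copy, 4 of 6 tested genes known as maternally expressed fell and 0 rose, 2 of 21 known as paternally expressed fell and 1 rose, and 0 of 12 whose imprinting varies with tissue or is weak in brain were called. Of all genes tested, 10.2% fell and 6.43% rose. The share of paternally expressed genes called, 14.3%, was near the 16.7% of all genes. The 4 maternally expressed genes that fell were Meg3, Rian, Mirg and Ube3a, of which the first 3 belong to 1 cluster. The 2 paternally expressed genes that fell were Kcnq1ot1 and Snhg14, and Peg13 was the gene that rose. With WT replicate 2, KO replicate 1 or KO replicate 3 left out, 2 maternally expressed genes were called, and with KO replicate 2 left out 3 were. The number of paternally expressed genes called was 6 with DESeq2, 7 without a filter and 8 without WT replicate 1, with 4 maternally expressed genes in each. Of the 12 others, 1 was called with DESeq2, without WT replicate 1 or without WT replicate 3.

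The Dlk1 to Dio3 cluster of chromosome 12 expresses the non-coding RNAs Meg3, Rian and Mirg from the maternal copy and the protein-coding genes Dlk1, Rtl1 and Dio3 from the paternal copy. Meg3, a nuclear RNA and the first of the non-coding genes in the direction of transcription (chromosome 12, 109540996 to 109571729, GRCm38, 30.7 kb), had 1317, 1090.3 and 1512 CPM in WT and 325, 382 and 308 CPM in KO. Every WT library was above every KO library by a wide margin. Mirg, at the far end of the non-coding stretch (chromosome 12, 109734981 to 109749458) and host to microRNAs, had 13.4, 11.4 and 11.8 CPM in WT and 3.29, 3.46 and 3.71 CPM in KO. Rian, which lies between them (chromosome 12, 109603945 to 109661716) and hosts box C/D small nucleolar RNAs, had 489.7, 435 and 394 CPM in WT and 307, 356 and 352 CPM in KO. None of the 3 genes overlapped between the groups, and the gap was narrow for Rian, where the lowest WT library was 394 and the highest KO library 356 CPM.

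The fall of Meg3 was 3.86 fold (log2 −1.95, SE 0.13; adjusted p = 2.55e-05) and that of Mirg 3.51 fold (−1.81, SE 0.12; adjusted p = 1.31e-05). Rian fell by 1.3 fold (−0.38, SE 0.09; adjusted p = 0.0173). The call of Rian was lost without WT replicate 2 (adjusted p = 0.0509), KO replicate 1 (0.0805) or KO replicate 3 (0.064), while Meg3 stayed between −2.06 and −1.83 and Mirg between −1.87 and −1.72 without any single library. The higher share of reads on no exon of their strand in WT moved with these falls, as it did with those of Kcnq1ot1 and Snhg14. It moved also with the falls of the opposite strands described below, whose reads it can include. Of the 5 granule neuron markers 1 fell (Gabra6), and the other 4 had log2 values of −0.39 to −0.23 that did not pass. The sums of 4 oligodendrocyte markers did not overlap, at 20620 to 23506 CPM in WT and 26269 to 28361 in KO, though 0 of the 4 passed. The part of these measures in the falls was not tested.

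The protein-coding genes of the cluster did not pass. Dlk1, a Notch-related membrane protein, had 30.4, 27.3 and 35.5 CPM in WT and 37.8, 43.4 and 33.6 CPM in KO (log2 0.33, SE 0.11; adjusted p = 0.0735), with WT replicate 3 inside the KO range. Begain, a synaptic scaffold gene upstream of Dlk1, was at 0.25 (SE 0.12; adjusted p = 0.191). Dio3, the enzyme that inactivates thyroid hormone, had 6, 11 and 0 reads in WT and 4, 3 and 7 reads in KO and was too low to test. Dlk1 passed when WT replicate 3 was left out (0.41, adjusted p = 0.0251) and Begain without WT replicate 1 (0.39, adjusted p = 0.0394).

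The start of Meg3 is shown because the gene had the second deepest fall of the list. Matches are marked to TGCCGC, the hexamer that the ZFP57 protein binds at control regions when it is methylated. Whether Zfp57 (below) has a part in any of the falls was not tested. The window runs from 250 bases before to 50 bases after the start that RefSeq gives on GRCm38.p6 (chr12:109540746-109541045, plus strand), with matches to TGCCGC or its complement GCGGCA in capitals.
Meg3: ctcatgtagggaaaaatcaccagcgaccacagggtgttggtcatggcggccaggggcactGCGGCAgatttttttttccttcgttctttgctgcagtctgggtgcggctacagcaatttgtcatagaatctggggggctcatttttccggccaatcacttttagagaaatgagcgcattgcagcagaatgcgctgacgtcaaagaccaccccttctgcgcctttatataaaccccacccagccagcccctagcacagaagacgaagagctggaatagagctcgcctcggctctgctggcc
It holds 13 CpG and 1 match. A window at another start of Meg3 (chr12:109545148-109545447) holds 1 CpG and 0 matches, and the windows of Rian, Mirg, Snhg14 and Ube3a, which also fell, hold 0 matches each. The window at the start of Kcnq1ot1, the gene with the deepest fall (chr7:143296498-143296797, minus strand, printed 5′ to 3′), holds 9 CpG and 0 matches.
Kcnq1ot1: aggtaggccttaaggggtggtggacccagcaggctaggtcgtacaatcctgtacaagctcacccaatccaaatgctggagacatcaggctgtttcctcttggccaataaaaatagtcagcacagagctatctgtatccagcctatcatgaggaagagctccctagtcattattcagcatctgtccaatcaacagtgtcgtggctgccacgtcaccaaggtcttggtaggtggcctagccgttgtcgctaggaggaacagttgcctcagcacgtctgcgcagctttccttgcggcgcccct
Of 32851 such windows of all genes, 11.6% hold the hexamer on either strand, and the median window has 7 CpG. Of 55 windows of the 34 imprinted genes with an entry, some of which overlap, 12 (21.8%) hold it, and their median was 17 CpG. As the hexamer itself holds a CpG, these shares come from windows that are not alike, and their difference was not tested. A match is only a match of letters, no match says only that these letters are not in the window, and a window at a start need not cover a control region.

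Between Dlk1 and Dio3 the tables have 72 further rows, of which 61 are microRNA and 7 small nucleolar RNA genes, and 24 of these had enough reads to test. Of the 24, 20 fell and 0 rose, 4 did not pass, and the median was −1.77 (all genes tested: 10.2% lower, median −0.01). The other 48 had too few reads. The filter asks for enough reads in as many libraries as a group holds. A row can thus pass through the WT libraries alone, and the count of falls depends on the filter. Without WT replicate 3 the filter was run anew and 39 rows fell. That is more than the 24 tested with all libraries, so some of them were not tested above. By kind, 14 of 15 microRNA rows and 5 of 6 small nucleolar RNA rows tested fell. These rows count reads over the hairpin or small RNA gene in bulk RNA libraries, and they are not a measure of mature microRNAs. Of those tested, 8 lie inside the span of Rian and 3 inside that of Mirg, so they need not be separate measures. The share of reads on no exon of their strand, 34.3% in WT and 17.3% in KO, moved with these falls too. Its part in them was not tested. The transcript 6430411K18Rik, 50.5 kb beyond the start of Meg3, had 5.11, 4.36 and 3.87 CPM in WT and 0.648, 0.909 and 0.603 CPM in KO (log2 −2.66, SE 0.20; adjusted p = 3.71e-05). Mir341, inside Rian, had 102, 70 and 16 reads in WT and 14, 20 and 25 reads in KO, which gave −2.37 (SE 0.25; adjusted p = 0.000265). The small nucleolar RNA gene AF357425, also inside Rian, was at −2.06 (SE 0.24; adjusted p = 0.000554), and Mir377, inside Mirg, at −1.95 (SE 0.29; adjusted p = 0.00175).

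Of 8 small RNA rows tested inside the span of Rian, 7 fell, with a median of −1.93, while the exons of Rian itself were at −0.38. The row that did not pass, AF357359, stood at −0.11 (SE 0.11). The 3 rows tested inside Mirg fell by 1.66 to 1.95 on the log2 scale, and Mirg itself fell by 1.81. No test compared these rows with their hosts, and the part of the share of reads on no exon in this contrast was not tested. The mature sequences that the named microRNA rows encode are printed to identify them, with the seed (bases 2 to 8) in capitals and taken from RefSeq on GRCm38.p6.
miR-341-5p: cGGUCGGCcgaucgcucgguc
miR-341-3p: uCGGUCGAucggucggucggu
miR-377-5p: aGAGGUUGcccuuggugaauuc
miR-377-3p: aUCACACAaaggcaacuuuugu
None of these 4 seeds is shared with another mature microRNA of the cluster.

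**Figure D2:**
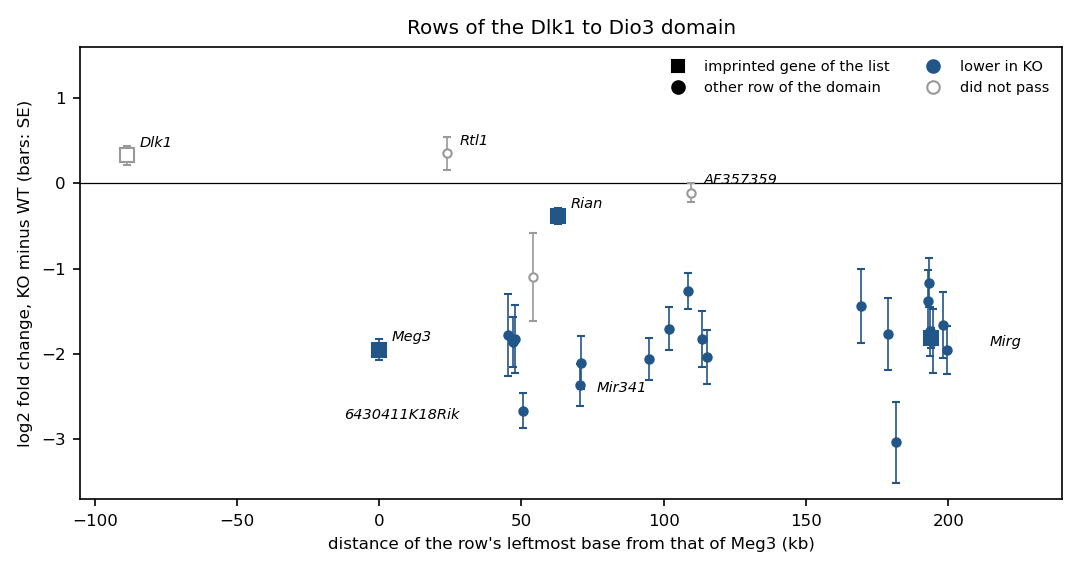
Log2 fold change (y axis, bars for the standard error) of the tested rows from Dlk1 to the end of the microRNA stretch, by distance from Meg3 in kb (x axis). Rows beyond 300 kb, among them Dio3os, are not drawn. Meg3, Mirg and most small RNA rows lie between −3.03 and −1.16, Rian and AF357359 lie higher, and Dlk1 and Rtl1 lie above 0.

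Rtl1, a retrotransposon-derived gene of the paternal copy, is transcribed against the maternal RNAs and lies opposite to them. Its own strand had 1.86, 1.49 and 1.08 CPM in WT and 1.97, 2.07 and 2.07 CPM in KO (log2 0.35, SE 0.19; adjusted p = 0.232). The strand opposite its exons, that of the maternal transcripts, had 20.3, 17.2 and 17.2 CPM in WT and 4.77, 5.63 and 5.69 CPM in KO, a fall of 3.41 fold (−1.77, SE 0.12; adjusted p = 1.6e-12). The opposite strand thus gave 92.6% ± 1.31 of the reads on Rtl1 exons in WT and 72.4% ± 1.41 in KO (SD, n = 3 each), and no KO library reached a WT library.

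The imprinted end of chromosome 7 has a pair of control regions. At the inner of these, the paternal copy makes Kcnq1ot1, an unspliced nuclear RNA that runs against Kcnq1 (chromosome 7, 143213111 to 143296547) and silences neighbours such as the cell cycle inhibitor gene Cdkn1c on that copy. Kcnq1ot1 had 228, 218 and 284 CPM in WT and 57.8, 55.7 and 60.4 CPM in KO, with no WT library below 217.8 and no KO library above 60.4. This was a fall of 4.18 fold (log2 −2.06, SE 0.10; adjusted p = 1.93e-06), and it was −2.14 to −1.94 without any single library.

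The protein-coding genes of the cluster did not pass. Cdkn1c had 20.1, 16.6 and 22.5 CPM in WT and 18.7, 19.6 and 20.2 CPM in KO, a difference of 0.02 (SE 0.10; adjusted p = 0.934) that changed sign without WT replicate 2 (−0.11) or KO replicate 3 (−0.01). Osbpl5, a lipid transfer protein gene imprinted mainly in placenta, had 29.9, 27.9 and 21.5 CPM in WT and 27.8, 31.2 and 29.1 CPM in KO (0.12, SE 0.11), and its groups overlapped too. Phlda2, a growth-restraining gene of placenta, had 0 reads in WT and 1, 1 and 0 in KO. Kcnq1 itself, a potassium channel gene, had 21, 24 and 5 reads in WT and 21, 22 and 23 reads in KO on its own strand (log2 −0.32, SE 0.27; adjusted p = 0.446). Opposite its exons, where Kcnq1ot1 runs, it had 43, 57 and 11 reads in WT and 13, 17 and 19 reads in KO (−1.90, SE 0.33; adjusted p = 6.76e-05), or 68.8% ± 1.59 of its exonic reads in WT and 42.4% ± 3.66 in KO (SD, n = 3 each).

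At the outer control region, Igf2, a growth factor gene of the paternal copy, had 205, 216 and 304 CPM in WT and 202, 202 and 185 CPM in KO. The groups did not overlap, yet WT replicate 3 lay far above the other WT libraries, and the difference did not pass (log2 −0.29, SE 0.14; adjusted p = 0.191). H19, the non-coding RNA of the maternal copy, had 5.05, 5.69 and 8.06 CPM in WT and 3.89, 5.07 and 3.93 CPM in KO (−0.45, SE 0.18; adjusted p = 0.11), and its groups overlapped. In brain Igf2 is known from the meninges, vessels and choroid plexus. Beside these genes, 6 meningeal fibroblast markers summed to 259 to 399 CPM in WT and 179.5 to 195 in KO, with 5 of the 6 lower, 4 endothelial markers to 97.6 to 112 and 71 to 72.4 CPM with 3 of 4 lower, and 4 choroid plexus markers to 1022 to 1259 and 1018 to 1305 CPM with 0 of 4 called. No marker of these lists was at 0. Their part in the values of Igf2 and H19 was not tested, and in whole tissue fewer cells of a type and less RNA per cell cannot be told apart.

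On chromosome 17, Airn is made from the paternal copy against Igf2r, the receptor that clears IGF2, which is known to be expressed from both copies in neurons. Airn had 3.34, 3.93 and 5.73 CPM in WT and 2.9, 2.55 and 2.56 CPM in KO. All WT libraries were above all KO libraries, but the difference just missed the threshold (log2 −0.58, SE 0.19; adjusted p = 0.0582) and passed without WT replicate 1 (−0.75, adjusted p = 0.0325). Igf2r had 75.7, 72.8 and 75.6 CPM in WT and 74, 69.4 and 69.5 CPM in KO, with overlap and a log2 difference of −0.07 (SE 0.06). Reads opposite the exons of Igf2r were few, 38, 32 and 3 reads in WT and 19, 13 and 14 reads in KO, and fell with some overlap of the groups (log2 −1.30, SE 0.37; adjusted p = 0.0129), a call lost without WT replicate 1 (adjusted p = 0.131), WT replicate 2 (0.055) or KO replicate 2 (0.0814).

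The Snrpn to Ube3a cluster of chromosome 7 is the mouse counterpart of the Prader-Willi and Angelman region. From the paternal copy, a transcript that begins near Snrpn runs on as the very long Snhg14, hosts small nucleolar RNAs, and in neurons continues against Ube3a, a ubiquitin ligase gene whose paternal copy it silences. Snhg14 had 71.6, 69.9 and 62.6 CPM in WT and 47.5, 54.1 and 54.5 CPM in KO. Ube3a (chromosome 7, 59228750 to 59310837) had 155, 157 and 167 CPM in WT and 131, 137 and 132 CPM in KO. Both fell without overlap of the groups, Snhg14 by 0.40 (SE 0.08; adjusted p = 0.00815) and Ube3a by 0.26 (SE 0.06; adjusted p = 0.0181) on the log2 scale.

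The strand opposite the exons of Ube3a, on which the end of Snhg14 runs, also fell. It had 3017, 2790 and 653 reads in WT and 661, 711 and 930 reads in KO, or 87.6, 86.3 and 101 CPM in WT and 17.1, 17.9 and 22.4 CPM in KO. That is a fall of 4.78 fold (log2 −2.26, SE 0.11; adjusted p = 8.86e-16), between −2.38 and −2.18 without any single library. The opposite strand held 36.1%, 35.5% and 37.7% of the reads on Ube3a exons in the WT libraries and 11.5%, 11.6% and 14.5% in the KO libraries. Exact 95% intervals, which cover counting error only, were at most 40.1% and at least 34.4% in WT and ran from 10.7% to 15.4% in KO. Counted without regard to strand, Ube3a would stand at −0.70 (adjusted p = 9.19e-05) in place of −0.26. The stranded call of Ube3a was lost without WT replicate 2 (adjusted p = 0.0563), KO replicate 1 (0.0777), KO replicate 2 (0.0573) or KO replicate 3 (0.0917).

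**Figure D3:**
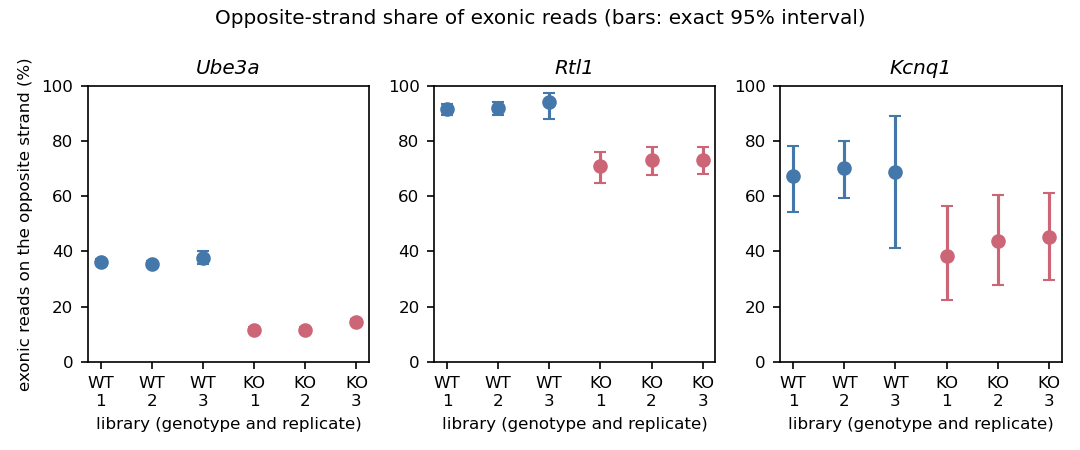
Share of exonic reads that lie on the strand opposite the gene (y axis, %) in each library (x axis) for Ube3a, Rtl1 and Kcnq1, with exact 95% binomial intervals. In each panel the 3 KO libraries lie below the 3 WT libraries, for Ube3a at 11.5% to 14.5% against 35.5% to 37.7%. Genes whose opposite strand did not fall, such as Mest, are not drawn.

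Of the 25 further rows from Ube3a to Peg12, 8 were tested, of which 5 fell, 0 rose and 3 did not pass (all genes tested: 10.2% lower). Some of these rows belong to the same long transcript, so they need not be separate measures. C230091D08Rik, which RefSeq lists as a synonym of Snhg14 though the files count it as a row of its own, had 39.1, 39.1 and 47.9 CPM in WT and 7.99, 8.05 and 8.7 CPM in KO (log2 −2.33, SE 0.10; adjusted p = 1.09e-06). A330076H08Rik (−1.78, SE 0.11), Ipw, a non-coding RNA of the Snhg14 transcript (−1.62, SE 0.12), and A230057D06Rik (−1.02, SE 0.11) fell too. Without WT replicate 3, where the filter was run anew, 8 rows fell, and they need not be the 8 tested here. The row named Snhg14 stood at −0.40. Which exons of the long transcript each of these 2 rows counts is not known here, so the value of neither stands for the whole transcript.

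The protein-coding genes of the paternal copy in this cluster did not pass. Snrpn, a spliceosome protein gene, had 2.38, 1.89 and 1.7 CPM in WT and 2.31, 2.98 and 2.63 CPM in KO (0.35, SE 0.18; adjusted p = 0.22). Its exons overlap those of Snurf, which had at most 1 read, and the files hold reads that lie in more than 1 gene apart from the gene rows, so its level is uncertain. Ndn, a MAGE family gene of postmitotic neurons, was at 0.18 (SE 0.09), Magel2, a MAGE gene of endosomal sorting, at 0.20 (SE 0.19), and Peg12 at −0.25 (SE 0.17). Peg12 was the member of these 3 whose groups did not overlap. Magel2 turned sign without WT replicate 2, and Ndn passed without WT replicate 1 (0.27, adjusted p = 0.0489).

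Peg13 was the imprinted gene that rose. It is a non-coding RNA of the paternal copy, unspliced, inside an intron of Trappc9 on the same strand (chromosome 15, 72805602 to 72810324). It had 248, 229 and 239 CPM in WT and 297, 311 and 286 CPM in KO, without overlap, a rise of 1.25 fold (log2 0.32, SE 0.06; adjusted p = 0.00715) that kept its call without any single library. Its host Trappc9, a vesicle trafficking gene, had 66.5, 66.5 and 52.7 CPM in WT and 68.2, 67.8 and 71.4 CPM in KO (0.14, SE 0.09; adjusted p = 0.278), with a small gap between the groups.

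**Figure D4:**
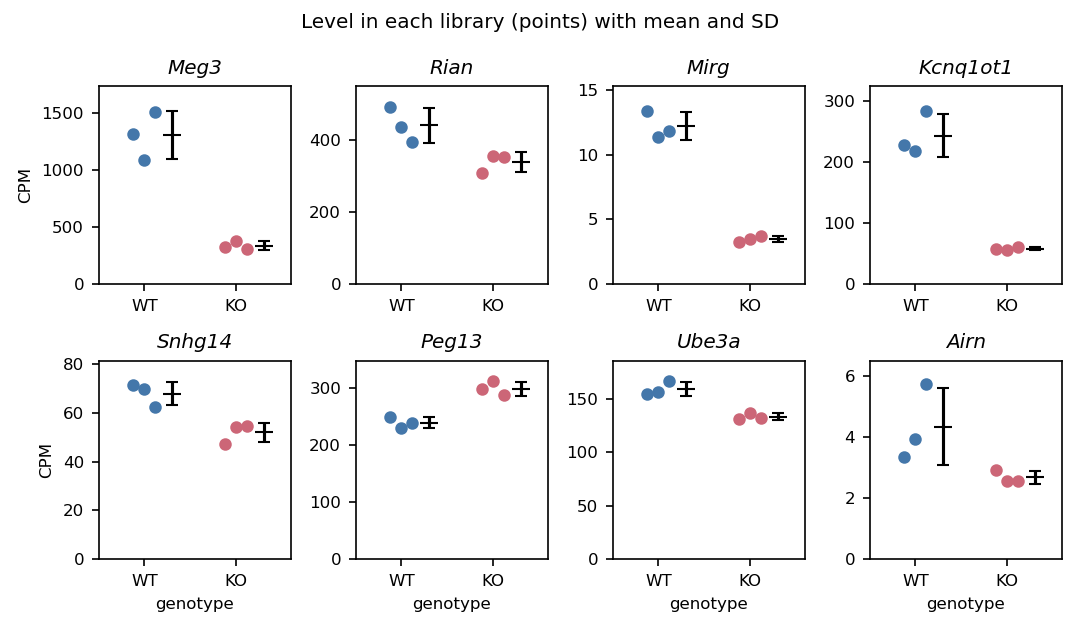
Level in CPM (y axis, from 0) of the 7 imprinted genes that were called and of Airn, which just missed the threshold, in each library (points) by genotype (x axis), with the mean and SD of 3 libraries. In every panel the groups are apart, and Peg13 is the gene with KO above WT.

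The remaining clusters held protein-coding genes, none of which passed. Peg3 and Usp29 start close together and run apart, and Peg3 encodes a zinc finger protein. Peg3 had 469.9, 397 and 429.8 CPM in WT and 462, 529 and 456 CPM in KO (0.16, SE 0.08), and Usp29 had 90.3, 74.2 and 83.4 CPM in WT and 88.6, 108 and 89.7 CPM in KO (0.21, SE 0.10). For both, KO replicate 2 was the highest library, and the groups overlapped. Mest, an alpha/beta hydrolase gene of the paternal copy, had 52.1, 50.5 and 57.3 CPM in WT and 54.1, 62.4 and 51.3 CPM in KO (0.08, SE 0.09), and Copg2, a coatomer gene whose end overlaps that of Mest on the other strand, had 76.5, 74.1 and 57.2 CPM in WT and 75.9, 77.4 and 78.6 CPM in KO (0.14, SE 0.10). Mest turned sign without KO replicate 2.

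Peg10, a retrotransposon-derived gene, had 68.8, 56.9 and 55.2 CPM in WT and 69.3, 79.8 and 71.3 CPM in KO. No WT library reached the KO range, and the difference came near the threshold (0.28, SE 0.09; adjusted p = 0.068), which it passed without WT replicate 1 (0.39, adjusted p = 0.015). Its divergent neighbour Sgce, epsilon-sarcoglycan, had 23.3, 24.1 and 29.6 CPM in WT and 23.7, 23.5 and 24.1 CPM in KO (−0.08, SE 0.09), with overlap. Ppp1r9a, which encodes the synaptic actin-binding protein neurabin, had 157, 146 and 171 CPM in WT and 173, 179 and 169.5 CPM in KO (0.14, SE 0.07). The fold change of Ppp1r9a passed without WT replicate 3 (0.20, adjusted p = 0.0227), and that of Sgce turned sign there.

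Genes that sit inside an intron of another gene were compared with their hosts. Zrsr1, a splicing factor retrogene of the paternal copy, had 43.1, 42.3 and 56.7 CPM in WT and 47.9, 48.1 and 43.7 CPM in KO (0.00, SE 0.10), a difference too close to 0 to keep its sign. Its host Commd1, a copper and endosome regulator on the other strand, had 10.9, 9.47 and 16 CPM in WT and 9.65, 9.67 and 10 CPM in KO (−0.22, SE 0.15). In both, WT replicate 3 was the highest library. Nnat, a small membrane protein of developing neurons, had 103, 90.2 and 149 CPM in WT and 95.9, 117 and 86.5 CPM in KO (−0.17, SE 0.21), which turned sign without that library (0.05). Its host Blcap, on the other strand, had 70.7, 67.3 and 62.8 CPM in WT and 72.7, 79.5 and 74.6 CPM in KO (0.17, SE 0.07; adjusted p = 0.115). Nap1l5, a nucleosome assembly protein retrogene, had 405, 332 and 430.2 CPM in WT and 413, 539.9 and 448 CPM in KO (0.27, SE 0.12), and the groups overlapped.

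On the strand opposite a member, 21 of the 41 genes had enough reads to test, of which 6 fell, 0 rose and 15 did not pass. Over all genes 14.7% of 5296 genes tested on that strand fell and 0.793% rose. The 6 were Ube3a and Igf2r (above), Nnat (−1.23, SE 0.19; adjusted p = 1.69e-05), Zrsr1 (−1.51, SE 0.36; adjusted p = 0.00259), Meg3 and Kcnq1ot1. Nnat had 3.46, 4.15 and 4.96 CPM in WT and 1.92, 1.74 and 1.47 CPM in KO on the strand of its host Blcap, and Zrsr1 had 1.25, 1.05 and 2.48 CPM in WT and 0.648, 0.429 and 0.362 CPM in KO on the strand of its host Commd1. For Meg3 and Kcnq1ot1 the opposite strand gave 0.298 and 0.634 reads per 100 sense reads in WT and 0.262 and 0.591 in KO; the ratio was not tested. For Ube3a the same ratio was 56.2 in WT and 14.4 in KO. The median log2 fold change of the 21 genes was −0.02, against −0.18 over all genes tested on that strand. Among genes that did not pass, the opposite strand gave 14.8% ± 0.653 of the reads on Mest exons in WT and 17% ± 0.331 in KO (SD, n = 3 each). For Copg2 it gave 38.2% ± 4.21 and 37.2% ± 3.09, and for Gnas 0.444% ± 0.11 and 0.479% ± 0.0776.

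The other genes are the only ones of the list in their clusters. Gnas, the stimulatory G protein subunit, had 1092, 1028 and 1021 CPM in WT and 1168, 1196 and 1149 CPM in KO (0.16, SE 0.07; adjusted p = 0.135), and Rasgrf1, a Ras exchange factor of neurons, had 251, 207 and 228 CPM in WT and 264, 292 and 258 CPM in KO (0.24, SE 0.08; adjusted p = 0.063). In both, all KO libraries were above all WT libraries by a small step. H13, a signal peptide peptidase, went the other way without overlap, with 73, 75.8 and 71.3 CPM in WT and 66.3, 66 and 68.6 CPM in KO (−0.13, SE 0.06; adjusted p = 0.15). Rasgrf1 passed without WT replicate 1 (0.32, adjusted p = 0.0286).

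Impact, a translation regulator that counters GCN2, had 301, 235 and 224 CPM in WT and 264, 345 and 306 CPM in KO (0.27, SE 0.13), and passed without WT replicate 1 (0.41, adjusted p = 0.0265). Grb10, a growth factor receptor adaptor expressed from the paternal copy in neurons, had 88.5, 69.9 and 65.4 CPM in WT and 70.6, 87.4 and 76.5 CPM in KO (0.06, SE 0.12). For Impact and Grb10, WT replicate 1 lay far above the other WT libraries. Plagl1, a zinc finger protein of growth control, had 22.3, 22 and 25 CPM in WT and 25.2, 23.5 and 21.6 CPM in KO (0.04, SE 0.09), and Inpp5f, an inositol phosphatase, had 160.1, 156 and 144 CPM in WT and 146, 169 and 161 CPM in KO (0.05, SE 0.07). The groups overlapped in both, and Plagl1 and Grb10 turned sign when 1 library was left out.

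Genes that set or keep imprints were listed as well. Of 22 such regulators, all tested, 9 (40.9%) fell and 0 rose, 13 did not pass, and the median was −0.31. Of all genes tested, 10.2% fell and 6.43% rose, with a median of −0.01. Zfp57, the zinc finger protein that binds methylated control regions, had 10.9, 11.4 and 11.8 CPM in WT and 4.8, 5 and 5.11 CPM in KO, a fall of 2.26 fold (−1.18, SE 0.10; adjusted p = 8.31e-05). Zfp445, a zinc finger protein with a like role, had 139, 141 and 136 CPM in WT and 101, 102 and 101 CPM in KO (−0.45, SE 0.06; adjusted p = 0.000802). Smchd1, a chromatin protein of the inactive X chromosome and of imprinted clusters, fell by 0.48 (SE 0.07) and Arid4b, a chromatin regulator, by 0.47 (SE 0.08) on the log2 scale. No WT library overlapped a KO library in any of these 4 genes, which were named for their small p. In 14 of the 22 regulators all WT libraries were above all KO libraries and in 0 the reverse held. Of all genes tested, 39.4% were without overlap in either direction. With WT replicate 2 left out, 5 regulators fell, as they did with KO replicate 1 or 2 left out, and 4 fell with KO replicate 3 left out.

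Of 45 other imprinted genes, 44 were in the tables and 37 were tested, of which 4 rose, 2 fell and 31 did not pass (median 0.12), a share of 16.2% near that of all genes. Pon2, a paraoxonase (0.51, SE 0.11), Th, tyrosine hydroxylase (0.65, SE 0.16), Kcnk9, the potassium channel of the Peg13 cluster (0.56, SE 0.14), and Ago2, an Argonaute protein of the same cluster (0.19, SE 0.06), rose. Nespas, the antisense RNA of the Gnas cluster (−1.39, SE 0.26), and Dcn, a matrix proteoglycan that is also on the list of meningeal fibroblast markers (−0.36, SE 0.10), fell. The number called was 2 without WT replicate 2, 3 without KO replicate 1 and 1 without KO replicate 2 or KO replicate 3.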

How the data were processed

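The authors deposited 1 file per library with raw counts of reads per gene, not normalized, 1 column ignoring strand and 1 per strand. Trimmomatic, STAR and the mm10 genome are named in the submitters' processing notes; for versions, gene annotation and library strandedness, the sources used here say nothing. The strand columns differed 55.4 fold in total, and the heavier was used; the lighter gave the opposite-strand values. The summary lines that name no gene were left out of library sizes. Unmapped reads made up 5.97% to 18.2% of a library, reads with several places 6.97% to 9.83%, and reads in more than 1 gene at most 0.458%.

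Low genes were removed with filterByExpr (15519 of 24411 genes kept). KO was compared with WT across all genes by edgeR 4.0.16 (R 4.3.3; TMM scaling, robust glmQLFit, glmQLFTest), with Benjamini-Hochberg adjustment and a threshold of 0.05. Fold changes are KO minus WT on the log2 scale. The standard error (SE) is the absolute log2 fold change over the root of F. CPM use TMM-scaled library sizes; 3 counts are 0.0723 to 0.465 CPM. The opposite strand was fitted the same way with the main column's library sizes (5296 genes). The fit was tested on simulated data. DESeq2 1.42.0 and other settings were alternatives. The replicates are called independent but their animals are not described. The p-values thus set a difference against the variation between these libraries, with dispersions moderated across genes. Positions came from RefSeq and GENCODE tables of GRCm38, the assembly of mm10, for 24316 of 24411 symbols; 7 members have no promoter entry.

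The members and lists were chosen with earlier results of these data known. All 41 members are accounted for; values in every library are given for those past the threshold, for the 3 largest changes per cluster and for partners of named members, and non-members are named by the smallest p, up to 4 per list and direction. AF357359 was named after its values were seen. The retinal marker list is not reported here.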

Additional observations from a re-analysis of the deposited data

How the results depend on the processing

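Of the 39 imprinted genes tested, the 7 called genes were also called with DESeq2, RLE or upper quartile factors, no filter, counts without regard to strand, and Rn45s left out. The sources do not say that replicate numbers pair libraries, and same-numbered libraries had correlations of −0.18, −0.14 and −0.10 between their deviations from the group means. With the replicate block, 1073 genes passed (252 higher, 821 lower) in place of 2585 (998 and 1587), the calls of Rian (adjusted p = 0.0668) and Ube3a (0.0788) were lost, 0 protein-coding members were called in place of 1, 13 further rows from Dlk1 to Dio3 fell in place of 20, and 5 regulators in place of 9. DESeq2 called 11 members (5 higher, 5 protein-coding), the additional ones being Dlk1, Peg10, Gnas and Rasgrf1; without a filter there were 11 (4 higher, 4 protein-coding; Dlk1, Airn, Peg10 and Rasgrf1), 41 rows from Dlk1 to Dio3 and 8 from Ube3a to Peg12 in place of 5. Without regard to strand 2 members were higher and 2 protein-coding members were called, with Rasgrf1 in addition.

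Leaving out 1 library at a time gave 1041 to 3719 genes called (245 to 1623 higher, 796 to 2096 lower; in all 1331 without WT replicate 2 and 1289, 1130 and 1041 without KO replicate 1, 2 or 3), 5 to 13 members called (1 to 6 higher, 4 to 7 lower; 4 to 6 non-coding genes lower and 0 to 6 protein-coding genes called), 14 to 39 lower rows from Dlk1 to Dio3, 5 to 8 from Ube3a to Peg12, 1 to 9 other imprinted genes called and 4 to 12 regulators lower. The most members, 13, were called without WT replicate 1, and 39 rows from Dlk1 to Dio3 fell without WT replicate 3. The filter on low counts was run anew in each fit. Without WT replicate 3 it kept 15901 genes in place of 15519, so rows not tested with all libraries could be called. What else changed these counts was not tested. Opposite the members, 5 or 6 genes fell. Signs turned only in genes that did not pass: Zrsr1 was at −0.0059 with upper quartile factors, −0.011 without regard to strand, −0.00039 with the replicate block and −0.071 to 0.129 without 1 library. Leaving out 1 library gave −0.106 to 0.092 for Cdkn1c, −0.0074 to 0.469 for Magel2, −0.0065 to 0.138 for Mest, −0.14 to 0.0085 for Sgce, −0.029 to 0.203 for Grb10, −0.016 to 0.092 for Plagl1 and −0.319 to 0.051 for Nnat. WT replicate 3 had the fewest reads on genes other than Rn45s and the largest shares of unmapped reads and of reads on no exon of their strand. These were not told apart.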

Other observations

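At the Gnas cluster the strands of the antisense RNA Nespas differed in direction. Nespas itself had 46, 43 and 8 reads in WT and 14, 24 and 22 reads in KO, at −1.39 on the log2 scale (SE 0.26; adjusted p = 0.00605). The strand opposite its exons, that of Gnas, had 222, 195 and 34 reads in WT and 292, 367 and 360 reads in KO and rose by 0.49 (SE 0.13; adjusted p = 0.00586). No WT library overlapped a KO library on either strand. Gnas stood at 0.16 over all its exons. Herc3, the host of Nap1l5, had 122, 128 and 118 CPM in WT and 124, 129 and 121 CPM in KO, and Mcts2, a retrogene of the paternal copy inside H13, had 5.52, 6.56 and 7.59 CPM in WT and 4.9, 5.27 and 4.53 CPM in KO (−0.37, SE 0.14; adjusted p = 0.0948).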
